A study of Mus musculus with 12 samples.

Results

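The comparison described is the first step along the posterior neural tube of the mouse embryo, the piece labelled part 2 against the piece labelled part 1. It rests on 4 of the 12 Affymetrix arrays of the series, the 2 arrays titled part 2 and the 2 titled part 1, chosen by title and paired by replicate number. All embryos were of the outbred CD1 strain at embryonic day 9.5 and none carried a named allele or received an experimental treatment. Per the labels' protocols, every embryo was exposed to pancreatin, a digestive enzyme mixture, at 2 mg per ml for 1 min. The presomitic mesoderm and the tube were then freed with needles from ectoderm, endoderm and lateral plate, and the tube was divided into 6 pieces. The series' design text names 2 embryos as the source, and arrays with the same replicate number were taken as pieces of the same embryo, which the labels do not state outright. With this number as a block, p-values rest on the residual spread over the 12 arrays, from 2 animals. Which of the numbered pieces lies caudally is not labelled, so results are stated by number.

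The spinal cord is laid down from a caudal growth zone in which FGF and Wnt signals keep progenitors undifferentiated and an enzyme, Cyp26a1, breaks down retinoic acid. Neural progenitors leaving this zone express the SoxB1 factors Sox1, Sox2 and Sox3, which hold their identity, and then patterning factors such as the Iroquois and Olig genes. Somites, which form from the neighbouring presomitic mesoderm, supply retinoic acid and flank the tube. The notochord beneath it secretes Sonic hedgehog, read by cells through the Gli factors.

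Markers of attached tissue were examined on the arrays before any gene was compared. The somite genes Foxc2, Foxc1 and Meox1 were high on part 2 replicate 1 and not on part 2 replicate 2. Foxc2, a forkhead factor of somite mesoderm, had signals of 36.6 and 1.05 in part 1 against 185 and 1.15 in part 2 (replicates 1 and 2, as in every such pair below). Foxc1, its close relative, was at 49.1 and 18.5 in part 1 against 168 and 2.54 in part 2. Meox1, a somite homeobox factor, stood at 26.6 and 2.39 in part 1 against 109 and 2.82 in part 2. Tcf15, another tested somite marker, was at 92.2 and 88.8 in part 1 against 157 and 91.0 in part 2. It was thus measured on all of these arrays, including part 2 replicate 2. The summed signal of the 5 tested somite markers, of 12 listed, was 220.2 and 131 in part 1, 781 and 151 in part 2, and between 226 and 729 on the 8 arrays of parts 3 to 6, where Aldh1a2, also a neural tube gene, made up most of it. The 7 other somite markers, among them Uncx, Pax1, Pax9 and Myf5, did not pass the filter on low signal, and Uncx was at 7.41 and Myf5 at 12.9 on part 2 replicate 1.

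Other tissues were uneven over the same arrays. Shh, made by notochord and floor plate, was at 71.0 and 26.2 in part 1 against 504 and 25.3 in part 2. The 5 tested notochord markers, of 8 listed, summed to 215 and 69.2 in part 1 against 732 and 95.7 in part 2. Shh made up most of the 732. Foxa1 was at 61.9 and 2.84 in part 1 against 116 and 17.7 in part 2. Foxa2 was at 48.3 and 11.5 against 60.6 and 11.9, and Chrd at 16.9 and 19.8 against 24.0 and 28.4. Noto, a defining notochord gene, and T, also on the list, were not tested. Embryonic globin Hbb-y was at 21.4 and 7055 in part 1 against 4338 and 2379 in part 2. Among the arrays of these 2 pieces, only replicate 1 of part 1 was thus almost free of blood transcripts. On the arrays of parts 3 to 6 Hbb-y lay between 56.5 and 4776. The 9 tested blood markers summed to 116 and 10150 in part 1 against 6236 and 2887 in part 2. Surface ectoderm ran in yet another order, the 10 tested markers summing to 1507 and 511 in part 1 against 563 and 912 in part 2. The 8 tested presomitic mesoderm markers, of 10 listed, summed to 5600 and 4019 in part 1 against 4251 and 2226 in part 2. Rspo3, which strengthens Wnt signals, gave 2581 and 2641 in part 1 against 1612 and 1445 in part 2, and Tbx6, a defining factor of that mesoderm, 518 and 188 against 272 and 33.7. Rspo3, Hes7, Dll3 and Tbx6 carried most of the sum. The defining marker Msgn1 was dim, at 23.1 and 28.5 against 11.4 and 7.90, as was Mesp2 at 6.98 and 21.7 against 16.2 and 2.82. Pcdh8 ran the other way, at 37.4 and 2.09 in part 1 against 607 and 6.83 in part 2. On the arrays of parts 3 to 6 Pcdh8 lay between 120 and 788. Endothelial markers were low, 3 of 10 being tested, with sums of 91.0 and 143 in part 1 against 109 and 76.7 in part 2. The 2 tested gut and visceral endoderm markers of 8 summed to 76.9 and 22.4 against 7.48 and 35.6, and 4 lateral plate and intermediate mesoderm markers of 10 to 50.6 and 39.96 against 60.3 and 36.5. In a bulk sample, fewer cells of a type and less RNA per cell cannot be told apart.

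**Figure D1:**
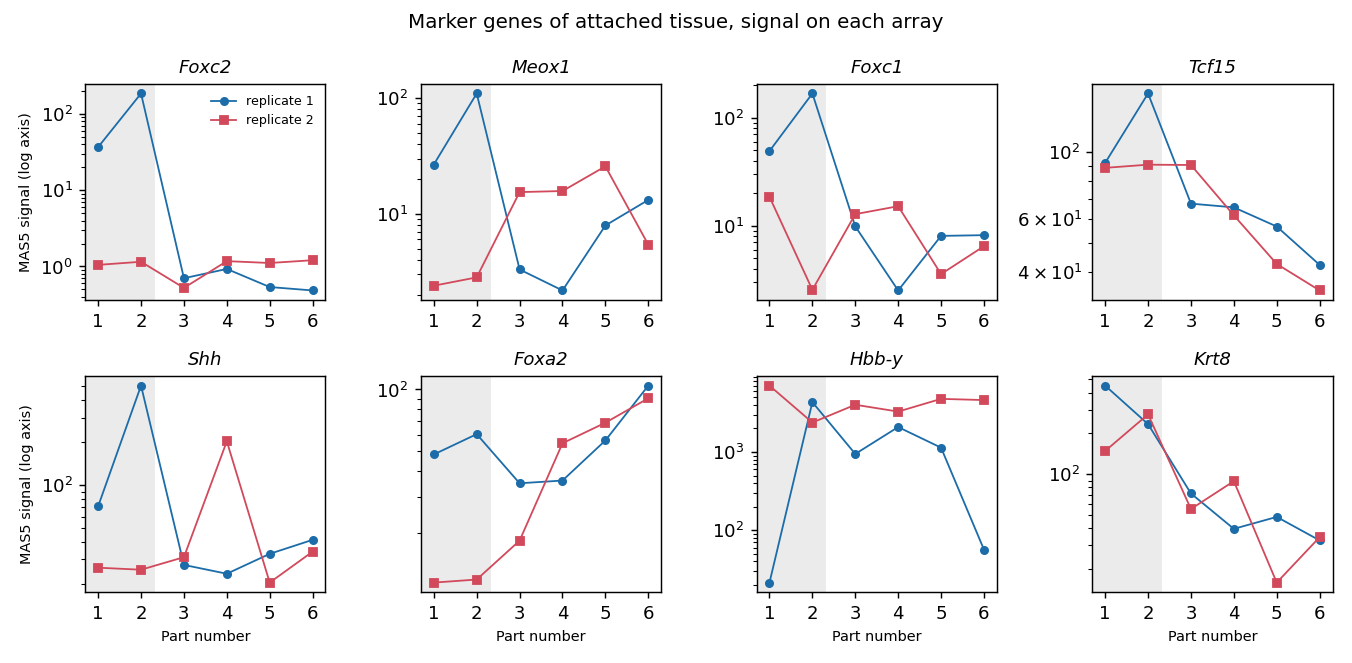
MAS5 signal (log axis) of 8 tissue marker genes against part number, with 1 point per array and 1 line per replicate; parts 1 and 2 are shaded. Foxc2, Meox1, Foxc1 and Shh peak on part 2 replicate 1 (185, 109, 168 and 504), and Hbb-y is at 21.4 on part 1 replicate 1 and at 7055 on replicate 2.

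The neural label of the pieces was checked against 10 neural tube markers, all tested. Their summed signal was 3433 and 3627 in part 1 against 5697 and 6916 in part 2. Sox2 and Ncam1, a neural cell adhesion molecule, were measured in both pieces, and Nkx1-2, a factor of the preneural caudal tube, had signals of 1266 and 1889 in part 1 against 2537 and 3075 in part 2. Pax6 and Sox21, factors of more mature progenitors, were low in both pieces, Pax6 at 17.2 and 34.2 against 12.3 and 15.9.

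In part 2, 41 genes were higher than in part 1 and 17 were lower, among 12089 genes tested (limma with the replicate number as a block, Benjamini-Hochberg adjusted p under 0.05). Together the 58 genes are 0.48% of those tested, or 0.339% higher and 0.141% lower, and at an unadjusted p under 0.05 the counts were 876 and 831. The genes that were higher included the SoxB1 factors, the homeobox genes Irx3 and Gbx2, the proneural gene Neurog2 and the Hedgehog effectors Gli1 and Gli2. Those that were lower included the receptor Gpr83, the transcription factor Pax7 and the Notch effector Hes5. Log2 differences, taken as log2(signal + 4.43), had a median of 1.42 among the higher genes and -1.41 among the lower, against -0.02 over all genes tested. In all 58 the 2 arrays of part 2 lay beyond both arrays of part 1. Because the 58 were called on these same arrays, their separation adds no support. Of all genes, 16.3% were separated in this way in the upward and 19.1% in the downward direction.

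All 58 genes differed in the same direction in both replicates, on which they were chosen, so this is a description. In replicate 2 the higher genes differed by 0.91 to 2.46 log2 and the lower by -2.36 to -0.82. Over all genes the differences of replicates 1 and 2 correlated at only r = 0.149, a description across genes that are not independent. Without part 2 replicate 1, limma called 10 genes higher and 9 lower, of which 7 and 2 were among the 58; these were Neurog2, Chst15, Irx3, Myb, Sox2, Irs4, Sema3e, Rell1 and Uap1l1. The differences of the 58 kept their sign there, with medians of 1.45 and -1.37, while 1 array of part 2 was left for the test. Without part 1 replicate 1, 165 genes were higher and 47 lower, including 30 and 12 of the 58. Without part 1 replicate 2 the counts were 13 and 5, and without part 2 replicate 2 they were 1 and 1. Irx3 was the gene called under each of these 4 omissions. Each of these fits leaves 1 array in 1 of the 2 pieces, so the loss of a call cannot be assigned to the array left out. Without the replicate block, 20 genes were higher and 10 lower, all 30 among the 58. With parts 1 and 2 only, 35 genes were higher and 31 lower, and 25 of these were among the 58.

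**Figure D2:**
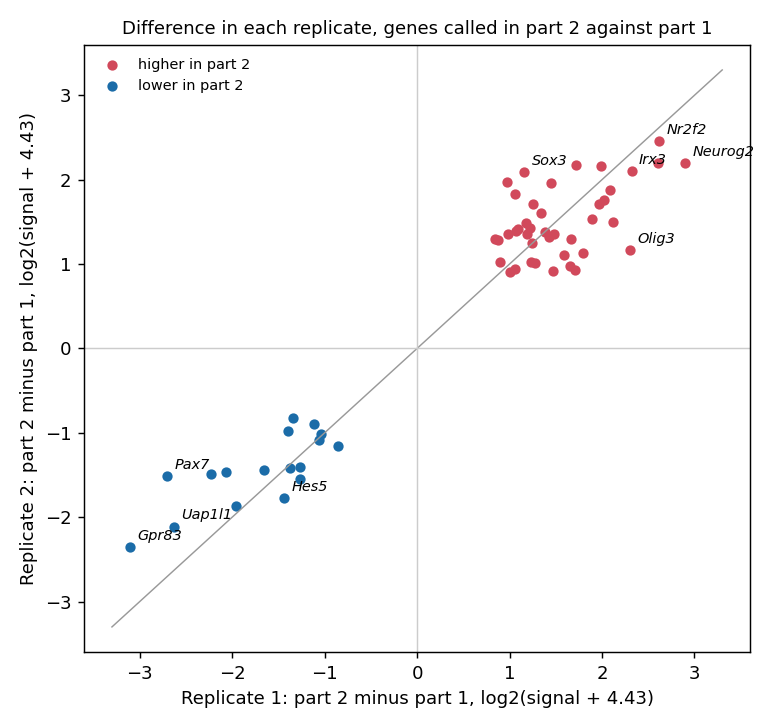
Part 2 minus part 1 on the log2(signal + 4.43) scale in replicate 1 (x axis) and replicate 2 (y axis) for the 58 genes called by limma; red points are higher in part 2, blue points lower, and the grey line marks equal differences. The points were chosen on both replicates together; those at upper right run from 0.91 to 2.46 in replicate 2.

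The SoxB1 genes Sox2, Sox1 and Sox3 were all called higher. Sox2, the SoxB1 factor of neural and neuromesodermal progenitors, had signals of 199 and 286 in part 1 against 820 and 981 in part 2. Its log2 difference was 1.89 ± 0.15 (SE), the limma adjusted p 0.00453. Sox1, a SoxB1 factor restricted to neural cells, was at 11.4 and 32.3 in part 1 against 63.0 and 131 in part 2 (1.98 ± 0.32, limma adjusted p = 0.0458). Both arrays of part 2 were thus above both of part 1, although the replicates of each piece differed. Sox3, the third SoxB1 gene, went from 81.9 and 73.7 to 189 and 328 (1.62 ± 0.25, limma adjusted p = 0.0409). Sox1 and Sox3 were not called without the block (0.144 and 0.0715) or without part 2 replicate 1 (0.110 and 0.0825). In part 6 the mean signals of Sox2, Sox1 and Sox3 were 1518, 397 and 329.

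Irx3, an Iroquois factor of intermediate neural progenitors, had signals of 41.9 and 39.2 in part 1 against 227 and 183 in part 2. The replicates of each piece lay close together, and the difference of 2.21 ± 0.17 log2 (limma adjusted p = 0.00453) was a 4.63-fold one. Neurog2, which commits progenitors to become neurons, was at 0.341 and 2.52 in part 1 against 31.2 and 27.4 in part 2 (2.55 ± 0.24, limma adjusted p = 0.00967). Olig3, a dorsal progenitor factor, was at 0.635 and 1.48 against 20.6 and 8.86 (1.74 ± 0.25, limma adjusted p = 0.0342). The part 1 signals of Neurog2 and Olig3 lay under the offset of 4.43, as did the part 1 means of Nr2f2, Myb, Kcne1l, Myod1 and Selplg, so that the size of these differences depends on the offset. Olig3 was not called without the block (limma adjusted p = 0.109) or without part 2 replicate 1 (0.153).

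Nr2f2, an orphan nuclear receptor also known as COUP-TFII, was called higher in part 2 and was lower again in part 3. Its signals were 4.66 and 3.02 in part 1, 51.3 and 36.4 in part 2, and then 15.4 and 6.82 in part 3 before reaching 160 and 184 in part 6. The step from part 1 to part 2 was 2.54 ± 0.26 log2 (limma adjusted p = 0.0108, and 0.0660 without part 2 replicate 1). Other probe sets of Nr2f2, all dimmer, differed by 1.06, 0.57, 0.39 and 0.03. Its relative Nr2f1 was listed at 0.261 and 0.378 in part 1 against 1.68 and 0.959 in part 2, all below the offset.

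Gbx2, a homeobox gene of the hindbrain border and caudal neural plate, was at 47.4 and 66.5 in part 1 against 201 and 312 in part 2 (2.07 ± 0.22, limma adjusted p = 0.0108; 0.0513 without the block and 0.0517 without part 2 replicate 1). Foxd1, a forkhead factor and not among the 14 genes the naming rule took, was also higher, at 293 and 487 against 935 and 1198 (1.48 ± 0.19, limma adjusted p = 0.0239; 0.0655 without the block and 0.110 without part 2 replicate 1). Its signal then dropped to a mean of 55.4 in part 6. Myb, a factor of proliferating progenitors, had low signals of 1.14 and 2.29 in part 1 against 13.9 and 25.9 in part 2 (1.95 ± 0.23, limma adjusted p = 0.0182), and 2 other dim probe sets differed by 0.58 and -0.52. Myod1, a muscle determination factor named here after its values were seen, was called higher at 2.43 and 5.84 against 19.4 and 18.0 (limma adjusted p = 0.0398; 0.130 without the block and 0.178 without part 2 replicate 1). Its signals in parts 3 to 6 lay between 8.38 and 20.1, and unlike Foxc2 its 2 part 2 arrays were close together. The median signals of the part 2 arrays were 17.7 and 19.1, so Myod1 lay near the median of all probe sets there. Whether it was detected above background was not tested.

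Chst15, a sulfotransferase that modifies chondroitin sulfate, had signals of 41.5 and 54.0 in part 1 against 275 and 264 in part 2 (2.40 ± 0.19, limma adjusted p = 0.00453), and a second probe set ran in the same direction. Ptn, the secreted growth factor pleiotrophin, went from 55.0 and 58.5 to 228 and 201 (1.84 ± 0.23, limma adjusted p = 0.0239), with 1.30 and 0.27 for other probe sets. Ddr1, a collagen receptor kinase, was at 252 and 445 in part 1 against 1106 and 1268 in part 2 (1.81 ± 0.23, limma adjusted p = 0.0252). Its other kept probe sets disagreed, from -0.28 to 1.06. Irs4, an adaptor of insulin and IGF receptors, had signals of 29.1 and 28.7 against 87.1 and 125 (1.71 ± 0.25, limma adjusted p = 0.0350), but a dimmer probe set differed by 0.05. Kcne1l, a potassium channel subunit, was at 2.52 and 2.51 against 21.3 and 15.7 (1.71 ± 0.17, limma adjusted p = 0.0105). Ptn, Ddr1 and Kcne1l were not called without part 2 replicate 1, nor without part 2 replicate 2. Each of these fits leaves 1 array of part 2. The differences were 1.56, 1.82 and 1.65 without replicate 1, and 2.12, 1.80 and 1.77 without replicate 2. The somite and notochord marker sums were highest on part 2 replicate 1, and their part in these 3 differences was not tested.

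At the offset of 4.43, Gpr83 and Uap1l1 had the largest drops; with an offset of 1, Pax7 (-2.77) and Mmp23 (-2.69) fell more than Uap1l1 (-2.42). Gpr83, a G protein-coupled receptor, had signals of 183 and 145 in part 1 against 17.3 and 24.8 in part 2, a difference of -2.73 ± 0.32 log2 (limma adjusted p = 0.0182; 0.0956 without part 2 replicate 1), and -3.31 for a second probe set. Uap1l1, a relative of an enzyme that makes UDP-N-acetylglucosamine, was at 470 and 298 against 72.4 and 65.6 (-2.37 ± 0.21, limma adjusted p = 0.00787), and -2.33 for a second probe set. Both pieces' arrays were far apart in these genes. Pax7, a dorsal progenitor and muscle precursor factor, was at 42.8 and 20.5 in part 1 against 2.83 and 4.28 in part 2 (-2.11 ± 0.28, limma adjusted p = 0.0257; 0.128 without part 2 replicate 1). It was under 3 on every array of parts 3 to 5 and at 18.6 and 23.3 in part 6. Mmp23, a membrane-bound metalloproteinase, was at 22.04 and 21.3 against 2.39 and 2.64 (-1.91 ± 0.21, limma adjusted p = 0.0146; 0.0894 without part 2 replicate 1). The part 2 signals of Pax7 and Mmp23 lay below the offset, and their size carries that limit.

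Hes5, a transcriptional repressor switched on by Notch, fell, its part 1 signals of 86.4 and 152 standing against 29.1 and 41.2 in part 2 (-1.61 ± 0.24, limma adjusted p = 0.0354), and a dimmer probe set differed by -0.999. In part 6 it reached 1619 and 1415. The call was lost without the block (0.0513) and without part 2 replicate 1 (0.171). Genes of innate and immune signalling were also among those that fell. Cd40, a receptor of the TNF receptor family, was at 404 and 325 against 125 and 117 (-1.55 ± 0.17, limma adjusted p = 0.0120). Sting1, an adaptor of cytosolic DNA sensing, had signals of 161 and 169 against 64.5 and 60.8 (-1.34 ± 0.18, limma adjusted p = 0.0257), and its signal dropped on to 1.51 and 0.828 in part 6. Irgm1, an interferon-induced GTPase, was dim, at 36.2 and 55.4 against 11.2 and 18.1 (-1.39 ± 0.23, limma adjusted p = 0.0496). These 3 genes were picked out as a group after their values were seen. Cd40 and Irgm1 were not called without the block (0.0669 and 0.139), and none of the 3 was called without part 2 replicate 1 (0.0813, 0.123 and 0.230).

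Of the other lower genes, Rell1, a relative of the TNF receptor-like protein RELT, was at 666 and 652 in part 1 against 274 and 220 in part 2 (-1.41 ± 0.14, limma adjusted p = 0.0108), with -1.15 for a second probe set. Ripk4, a kinase known in epidermis, was at 371 and 291 against 75.9 and 101.2 (-1.85 ± 0.28, limma adjusted p = 0.0369; 0.171 without part 2 replicate 1). Surface ectoderm markers were highest on part 1 replicate 1, but lower on part 1 replicate 2 than on part 2 replicate 2, and their part in the Ripk4 difference was not tested. Smim10l2a (-1.18 ± 0.16), Endod1 (-1.08 ± 0.17), Ints6l (-1.07 ± 0.15), a relative of an Integrator complex subunit, and Ndrg3 (-1.03 ± 0.16) completed the 14 largest with a gene name. None of these 4 was called without part 2 replicate 1, and Endod1 and Ndrg3 were not called without the block (0.0513 for each).

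**Figure D3:**
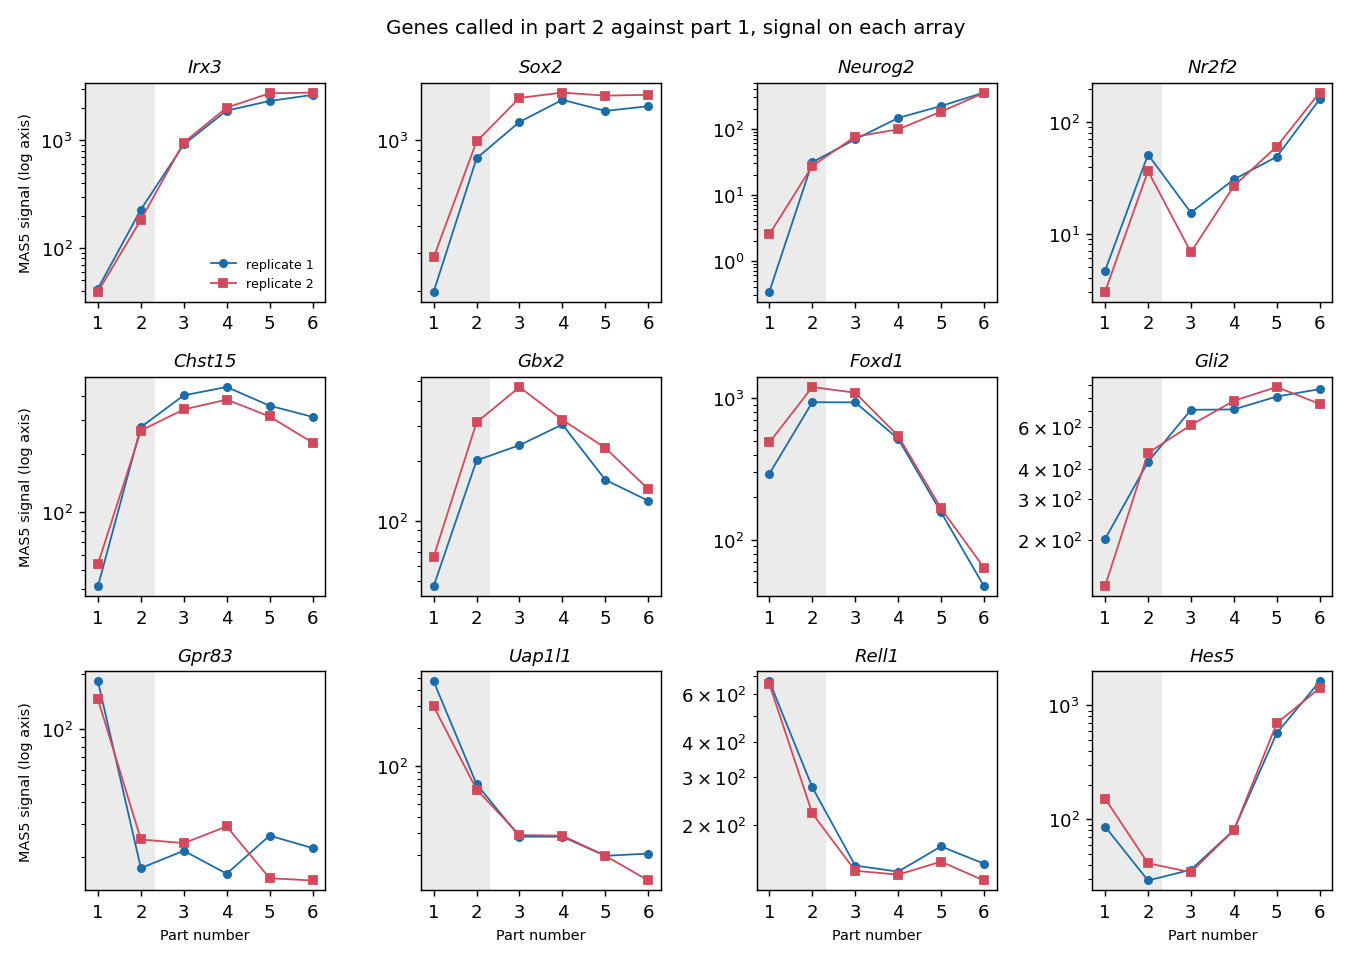
MAS5 signal (log axis) of 12 genes called in part 2 against part 1, by part number, with 1 line per replicate; parts 1 and 2 are shaded. Irx3 climbs from about 40.6 in part 1 to 2711 in part 6 (means), Gpr83 stays between 14.8 and 29.3 after part 1, and Foxd1 and Hes5 turn in direction. Their part 3 means, 1013 and 35.3, are still near those of part 2, 1066.5 and 35.2.

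Promoter sequence was looked up in RefSeq (build GRCm38.p6, 250 bases before to 50 after the start) for the 58 called genes, of which 44 had an entry, with 52 promoters. Motifs of 3 factors downstream of the signals named above were searched on both strands. The direct repeat bound by retinoic acid receptors was in 0 of these promoters and in 0.0731% of the 32851 promoters in the table (0.0321% of the 12465 promoters of tested genes). The TCF/LEF motif of Wnt signalling (CTTTGAA or CTTTGAT) was in 6 of 39 promoters of higher genes (15.4%) and 1 of 13 of lower genes (7.69%), against 8.65% of all and 5.94% of those of tested genes. The RBPJ motif of Notch signalling (GTGGGAA) was in 0 of 39 and in 2 of 13, against 6.38% of all and 6.11% of those of tested genes, and none of the 3 motifs overlapped another in the promoters shown. The counts are small and a match is a description of letters, not a site of binding. Given 5′ to 3′ on the gene's strand, with matches in capitals, are Hes5 (chr4:154960673-154960972, plus strand), the Notch effector that was lower, whose promoter held the RBPJ motif on both strands, and the higher genes Nr2f2 (chr7:70366697-70366996, minus strand) and Ddr1 (chr17:35704550-35704849, minus strand), each with a TCF/LEF match.
Hes5: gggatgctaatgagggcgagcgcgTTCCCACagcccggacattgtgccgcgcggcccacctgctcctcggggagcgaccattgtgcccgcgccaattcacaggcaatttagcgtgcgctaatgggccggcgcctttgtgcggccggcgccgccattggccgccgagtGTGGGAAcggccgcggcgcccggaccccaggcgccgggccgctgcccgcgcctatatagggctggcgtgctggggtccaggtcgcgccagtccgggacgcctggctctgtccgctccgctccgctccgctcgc
Nr2f2: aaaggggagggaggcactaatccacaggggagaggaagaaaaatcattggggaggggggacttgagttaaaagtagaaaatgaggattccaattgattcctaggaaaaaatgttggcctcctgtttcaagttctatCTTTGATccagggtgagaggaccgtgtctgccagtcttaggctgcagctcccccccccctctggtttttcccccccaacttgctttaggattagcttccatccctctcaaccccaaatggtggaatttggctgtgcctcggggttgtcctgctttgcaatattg
Ddr1: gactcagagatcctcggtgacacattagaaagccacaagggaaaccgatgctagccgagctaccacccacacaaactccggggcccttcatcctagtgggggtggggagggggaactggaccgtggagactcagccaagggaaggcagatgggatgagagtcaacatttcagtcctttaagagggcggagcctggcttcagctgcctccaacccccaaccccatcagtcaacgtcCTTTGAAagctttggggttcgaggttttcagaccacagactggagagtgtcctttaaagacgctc
The RBPJ matches of Hes5 started 226 and 83 bases before the start site, and the TCF/LEF matches of Nr2f2 and Ddr1 began 114 and 15 bases before theirs.

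Gene lists for the pathways of the tube were read against the same background, 41 higher and 17 lower among 12089 genes with a median of -0.02. Only 0.48% of all genes were called, so a list without a call is near that share and gives no result about the list. Of 19 neural progenitor genes, 4 rose (Irx3, Sox2, Sox3 and Sox1), 1 fell (Hes5) and 14 were not called, with a list median of 0.89 log2 (0.67 without part 2 replicate 1). Both part 2 arrays were above both part 1 arrays in 11 of the 19 and below both in 3, against 16.3% and 19.1% of all genes tested. Among those not called, Zic2, a zinc finger factor, was at 12.2 and 24.2 against 52.8 and 90.6 (limma adjusted p = 0.0627), and Meis1, a Hox cofactor, at 11.9 and 14.3 against 60.3 and 36.1 (0.0645). Fabp7, a fatty acid binding protein of radial glia, ran the other way, at 585 and 451 against 186 and 23.4 (0.113).

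Of the 3 Gli factors on the Hedgehog list, Gli1 and Gli2 were called higher in part 2 and Gli3, mainly a repressor, was not (452 and 257 against 548 and 525, limma adjusted p = 0.211). Of 13 ventral and Hedgehog genes, 2 rose, 0 fell and 11 were not called, with a median of 0.65 (0.20 without part 2 replicate 1). Gli1, a direct target and effector of the pathway, was at 27.2 and 25.4 in part 1 against 62.1 and 74.0 in part 2 (1.23 ± 0.17, limma adjusted p = 0.0293). Gli2, the main activating effector, went from 203 and 128 to 428 and 467 (1.45 ± 0.21, limma adjusted p = 0.0342). The 2 part 2 arrays were alike in both genes, although Shh itself was at 504 on replicate 1 and at 25.3 on replicate 2; neither gene was called without replicate 1 (0.0946 and 0.110). The receptor Ptch1, also a target, was at 1144 and 519 against 1942 and 1586 (1.18 ± 0.28, limma adjusted p = 0.144), and Scube2, which helps release Hedgehog protein, at 6.51 and 4.76 against 11.7 and 11.3 (0.168).

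None of the 16 tested caudal progenitor genes was called over this step, against 0.48% of all genes tested, with a list median of -0.09. Cyp26a1, which degrades retinoic acid, was at 2899 and 3217 in part 1 against 1710 and 2358 in part 2 (-0.60 ± 0.40, limma adjusted p = 0.529). Wnt5b, a noncanonical Wnt ligand, was at 1009 and 813 against 370 and 452 (-1.14 ± 0.19, limma adjusted p = 0.0528), and Wnt3a at 305 and 149 against 89.3 and 90.6 (-1.20 ± 0.44, 0.282). Nkx1-2 (0.85 ± 0.20, 0.148) and Sall4 (0.82 ± 0.20, 0.151), a zinc finger factor of early progenitors, differed upward without passing. Failing the test does not show that these genes were equal in the 2 pieces.

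FGF genes differed in both directions without a call in part 2 against part 1. Of 22 ligands, receptors and response genes, 0 were called, against 0.48% of all genes tested, and the median was 0.07. Fgf18 was at 56.3 and 29.9 in part 1 against 146 and 128 in part 2 (1.62 ± 0.30, limma adjusted p = 0.0691). Against its average change per piece from part 2 to part 6, -0.86, the first step of Fgf18 was called more positive. That difference was 2.48 ± 0.34 (limma adjusted p = 0.0476, and 0.0533 without the block). Fgf3 ran opposite, at 323 and 140 against 66.6 and 10.6 (-2.74 ± 0.56, 0.0981), and was called without part 2 replicate 1 (0.0496). The response genes Spry2, a feedback inhibitor (0.71 ± 0.14, 0.0930), and Etv5, an ETS factor (1.16 ± 0.25, 0.112), were above part 1 on both arrays of part 2. Of 20 Wnt genes 0 were called (median -0.04), with Apcdd1, a Wnt inhibitor and target, at -0.69 ± 0.18 (0.172) and Dkk1, a secreted antagonist, at -2.02 ± 0.65 (0.234). Of 18 BMP and TGF-beta genes 0 were called (median -0.09), the smallest p belonging to Bmper, a BMP-binding protein, at 171 and 69.5 against 13.6 and 24.5 (0.150).

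Of 12 retinoid genes 0 were called (median 0.07), against 0.48% of all genes tested. Aldh1a2, which makes retinoic acid in somites and tube, was at 15.6 and 20.2 in part 1 against 162 and 53.9 in part 2 (2.15 ± 0.41, limma adjusted p = 0.0851). It is itself one of the 5 tested somite markers, and its signals in parts 4 to 6 were higher, from 309.7 to 655.5. Dhrs3, which reduces retinal and so limits retinoic acid, was at 20.8 and 15.4 against 8.18 and 4.41 (0.174), and Crabp2, a carrier of retinoic acid, at 1135 and 1039 against 754 and 805 (0.255). Of the 4 orphan nuclear receptors in the COUP-TF and Nr6a1 list, 1 rose, Nr2f2, and Nr6a1 was at 65.1 and 36.0 against 78.6 and 57.3 (0.525).

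No call fell among the Hox genes, against 0.48% of all genes tested. The lists held 6 genes of paralogue groups 10 to 13 (median -0.01), 9 of groups 6 to 9 (-0.13) and 13 of groups 1 to 5 (0.10). Hoxa5 came nearest, at 333 and 277 in part 1 against 614 and 563 in part 2 (0.94 ± 0.16, limma adjusted p = 0.0569). Hoxa10 was at 146 and 121 against 223 and 240 (0.332), and Hoxb9 at 37.4 and 31.2 against 4.71 and 21.6 (0.311).

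Dorsal and neuronal lists held single changes. Of 13 dorsal genes 1 rose (Olig3), 1 fell (Pax7) and 11 were not called (median -0.20), with the BMP targets Id3 and Id1 at -0.61 ± 0.24 and -0.47 ± 0.26 (limma adjusted p = 0.315 and 0.463). Of 19 genes of neurogenesis and neurons 1 rose, Neurog2, and 18 were not called (median -0.00); Tubb3, a neuronal tubulin, was at 29.8 and 42.5 against 48.7 and 69.7 (0.240). Dll1, a Notch ligand, was at 453 and 226 in part 1 against 524 and 22.2 in part 2, the replicates of part 2 standing far apart. Of 17 Notch pathway genes 1 fell, Hes5, and the median was 0.14 (-0.31 without part 2 replicate 1); the ligand Jag1 was at 571 and 378 against 233 and 232 (-0.98 ± 0.19, 0.0777). Of 12 neural crest genes 0 were called (median -0.07), Ets1 having the smallest p at 64.0 and 61.1 against 20.5 and 29.8 (0.123).

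Growth and housekeeping lists gave no call, against 0.48% of all genes tested. Of 16 G1/S genes the median was 0.16, with Ccne1, cyclin E1, at 511 and 445 against 1196 and 913 (1.12 ± 0.24, limma adjusted p = 0.113). The medians of 15 G2/M genes, 16 glycolysis genes and 20 matrix and adhesion genes were -0.08, -0.07 and 0.17. In the last list the smallest p belonged to Nrcam, a neural adhesion molecule, at 19.8 and 15.7 against 36.0 and 45.5 (1.02 ± 0.19, 0.0691).

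**Figure D4:**
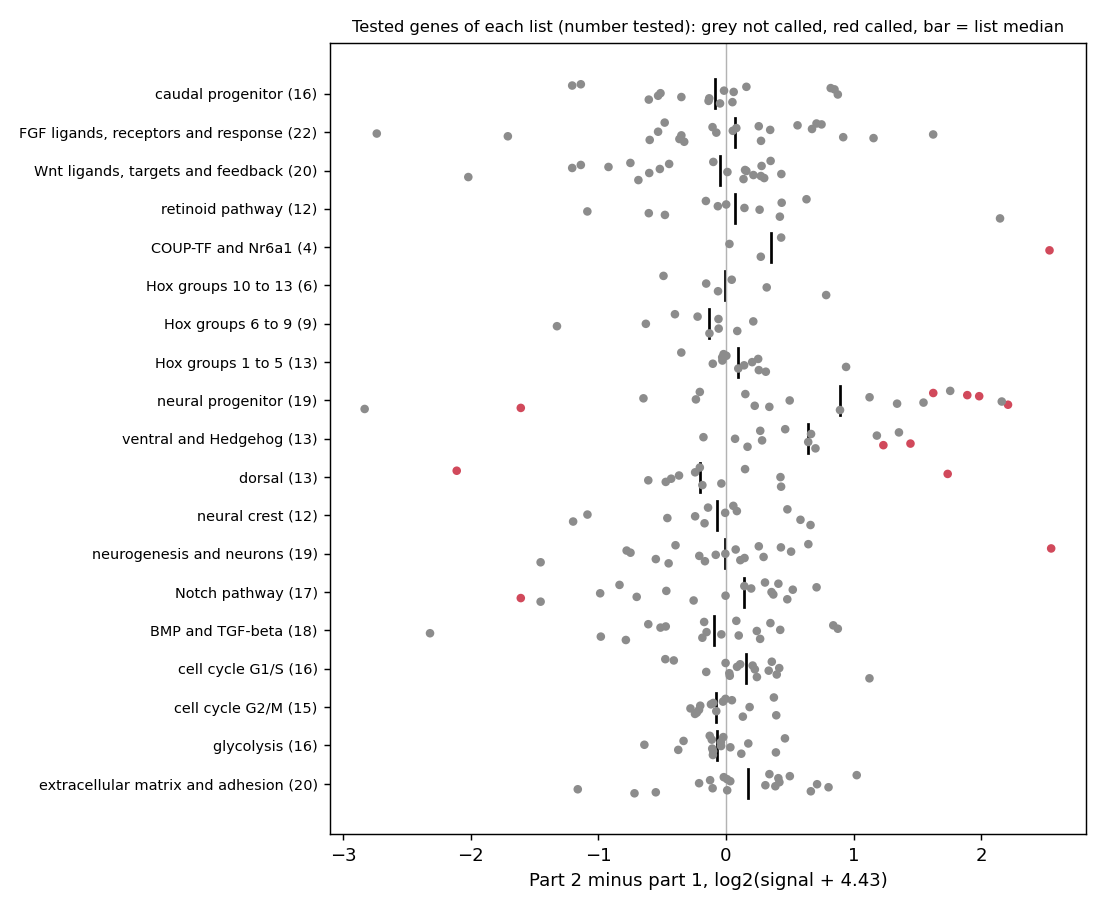
Part 2 minus part 1 on the log2(signal + 4.43) scale for each tested gene of 19 pathway lists, with the number tested in brackets; grey points were not called by limma, red points were called, and the black bar is the list median. The neural progenitor list has the highest median, 0.89, with 4 red points above 0 and 1 below.

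The step from part 1 to part 2 was also set against the average change per piece from part 2 to part 6, by a contrast within the same fit. It differed for 18 genes of 12089 (0.149%), being more positive at the first step in 10 (0.0827%) and more negative in 8 (0.0662%). Chst15 changed by 2.40 log2 at the first step and by -0.00 per later piece (difference 2.41 ± 0.22, limma adjusted p = 0.0144). Sox2 changed by 1.89 and 0.19 (1.70 ± 0.18, limma adjusted p = 0.0226), and Myb by 1.95 and -0.03 (1.98 ± 0.26, 0.0476). Chst15 had a mean of 269 in part 2 and 269.5 in part 6, and Myb 19.9 and 17.4. The change per later piece uses parts 2 and 6 only. Between them Chst15 was not flat, with means of 370 and 412 in parts 3 and 4. Foxd1 went up by 1.48 and then by -1.04 per piece (2.52 ± 0.21, limma adjusted p = 0.0144), and Gbx2 by 2.07 and -0.22 (2.29 ± 0.25, 0.0258). Gbx2 first rose further, from a mean of 257 in part 2 to 354 in part 3, and Foxd1 was still at 1013 in part 3.

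On the negative side, Gpr83 changed by -2.73 log2 and then by -0.04 per piece (difference -2.69 ± 0.37, limma adjusted p = 0.0476). Uap1l1 changed by -2.37 and -0.46 (-1.91 ± 0.24, 0.0476) and Mmp23 by -1.91 and 0.25 (-2.16 ± 0.24, 0.0293). Hes5 and Pax7 reversed, with -1.61 and 1.32 for Hes5 (-2.93 ± 0.27, limma adjusted p = 0.0144) and -2.11 and 0.42 for Pax7 (-2.53 ± 0.32, 0.0476). For Irx3, at 2.21 and then 0.93 per piece, the difference of 1.28 did not pass (0.0632). Without the block this contrast was called for 2 genes in the positive and 3 in the negative direction, and without part 2 replicate 1 for 0 and 1, so these calls depend on both arrays of part 2 and on the pairing.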

How the data were processed

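The deposited values are linear intensities, 1 signal for each probe set on each array. The submitters' processing notes name MAS5, whose version no source used here gives. The 2% trimmed mean was 100 on every array and the median signal 16.7 to 19.1, so arrays were comparable if most genes do not change. The labels' protocols describe a double amplification, which favours 3′ ends. Detection calls were not used, and 2 arrays per part limit the precision.

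Control probe sets (64 of 45101) and probe sets without exactly 1 gene symbol in GEO's platform annotation were left out (34945 had 1, 932 several and 9160 none). A probe set was used when it exceeded its array's median on at least 2 of 12 arrays (21679), and each gene was represented by its brightest one (12089 genes). Symbols were updated through Entrez identifiers (34741 matched).

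Values were taken as log2(signal + 4.43), 0.25 of the median of all signals (17.7). limma 3.58.1 in R 4.3.3 fitted 1 coefficient per part and the replicate number as a block over all 12 arrays, with moderated, two-sided tests and Benjamini-Hochberg adjustment over all genes; every adjusted p is from this fit unless another is named. Pairing rests on the design text and on deviations of same-numbered arrays from their part means, which correlated in all 15 pairs of parts (0.183 to 0.335, median 0.234). The correlation shows an effect of the replicate number. Whether that effect comes from a shared embryo or from shared handling was not tested.

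Named genes were the 14 largest called differences in each direction with separated arrays and a clear gene name, the 4 lowest p-values at most in each list, and up to 5 per direction against later steps; others were chosen after their values were seen. The members, lists and tests were chosen with earlier results of these data known. The fits were tested on simulated data. Promoters came from RefSeq.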

Additional observations from a re-analysis of the deposited data

How the results depend on the processing

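All 28 genes named by size kept their direction under all 13 alternatives in which they were tested. Of the 28, limma called 27 with the offset at the median signal, 26 with quantile normalization, 25 with an intensity trend, 23 with each probe set tested, 21 with an offset of 1 or with parts 1 and 2 only, 19 without the block, 11 with no filter on low signal, and 23 of the 23 left by a filter at the 75th percentile. This tally leaves out the fits without 1 array of parts 1 or 2, in which calls of named genes were also lost, as given above. Each of those fits leaves 1 array in a piece, so only the size of the differences is given. All called genes kept their sign there, with smallest sizes of 0.831 to 0.947 log2 by fit. Counts of calls moved more than directions. With no replicate block 20 genes were higher and 10 lower in part 2, against 41 and 17 in the paired fit. With an offset of 1, 11 were lower; with the offset at the median signal, 80 were higher and 40 lower. With no filter on low signal the counts were 7 and 5, with the filter at the 75th percentile 127 and 55, and with an intensity trend 130 and 43. With parts 1 and 2 only, 31 were lower. Leaving out 1 array of parts 1 or 2 gave 1 to 165 higher and 1 to 47 lower. For the first step against the mean later step (10 positive, 8 negative), no replicate block gave 2 and 3, no filter 2 and 2, the filter at the 75th percentile 44 and 18 and an intensity trend 54 and 14; an offset of 1 gave 2 negative, the offset at the median signal 13 and each probe set tested 5. Leaving out 1 array gave 0 to 8 positive and 1 to 3 negative. The cause of these shifts was not tested, beyond fewer genes or arrays entering the test by construction. Of 61 other kept probe sets of 35 called genes, 57 ran in the same direction. Signals of a few units cannot be told from background.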

Other observations

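In part 2, 83 of 12089 genes stood more than 2 log2 apart between its 2 arrays, against 108 in part 1 and 27 to 48 in parts 3 to 6. Higher on replicate 1 were Pcdh8, a protocadherin of forming somites (607 and 6.83), S1pr3 (998 and 14.1) and Aplnr (1493 and 24.2), receptors known in vessels and mesoderm, and Pcdh19 (509 and 13.5). In part 1, S1pr3 was at 1532 and 582 and Aplnr at 2741 and 632. Pcdh8 was also measured on the arrays of parts 3 to 6, at 120 to 788. Xist, the RNA of the inactive X chromosome, was at 628 and 3.39 in part 1 and 1502 and 7.46 in part 2, and the Y-linked Eif2s3y at 2.58 and 346 and at 4.13 and 298, so that embryo and sex cannot be told apart in the pairs.

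In 62 genes the 2 replicates moved more than 1 log2 in opposite directions from part 1 to part 2. The globins led, Hbb-y differing by 7.39 in replicate 1 and by -1.57 in replicate 2, and Hbb-bh1 by 6.66 and -2.74. Epithelial genes went the other way. Esrp1, an epithelial splicing regulator, differed by -3.41 and 1.57, the ligand Wnt4 by -3.3 and 1.46, and Tfap2a, a factor of ectoderm and neural crest, by -2.10 and 1.82. These genes were singled out after their values were seen, and none was called in the paired comparison.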
